A study of Mus musculus with 4 samples.

Results

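Radial glia of the embryonic cortex are the dividing progenitors that line the ventricle. Here they were taken from a droplet single-cell RNA library of dorsal cortex (CTX) as high-Nestin cells with no counted transcript of Eomes or Neurod6. A CTX cell was selected when ln(1 + UMIs per 10000) of Nes was above 1.5 and no UMI (unique molecular identifier, 1 counted transcript molecule) of Eomes or Neurod6 was found in it, so the cells were selected on these 3 values. Cells were first required to hold more than 1500 and fewer than 4500 detected genes, less than 5% mitochondrial UMIs and less than 1% Hbb UMIs. This gave 682 of 3634 CTX cells that passed these filters, a share of 18.8% with an exact binomial (Clopper-Pearson) 95% interval of 17.5 to 20.1%. The values of Nes, Eomes and Neurod6 chose the cells, so they are given as a description only.

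Radial glia span the wall of the embryonic brain, divide at its ventricular surface, and either renew themselves or give rise to neurons directly or through intermediate progenitors. Nes encodes an intermediate filament protein of neural progenitors, Eomes (Tbr2) marks intermediate progenitors and Neurod6 marks young excitatory neurons. Notch signalling keeps radial glia undifferentiated: ligands such as Dll1 on neighbouring cells activate Notch receptors, which with RBPJ switch on the Hes repressors, and these repress proneural genes such as Neurog2. In the dorsal telencephalon Neurog2, Emx1, Emx2 and Pax6 set the excitatory identity of the progeny, whereas Gsx2 and the Dlx genes set the inhibitory identity of the ganglionic eminences.

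The data came from 4 libraries of wild-type mice at E12.5, with 1 library each from CTX and from 3 ganglionic eminences, the medial (MGE), the lateral (LGE) and the caudal (CGE). Tissue was pooled over C57BL/6 embryos of both sexes. The submitters' protocol describes sorting of live cells stained with DRAQ5 and free of DAPI, whereas the published methods give wild-type cells as unsorted, and this was not settled. With 1 library for each region, region and library cannot be told apart. No test between groups was possible, no p-value is given, and all intervals are 95% intervals of counting error alone. The libraries held 4301 to 6953 barcodes, and 16544 cells passed the filters. The same gate kept 665 of 4810 LGE cells (13.8%, 12.9 to 14.8%), 551 of 4852 MGE cells (11.4%, 10.5 to 12.3%) and 178 of 3248 CGE cells (5.48%, 4.72 to 6.32%). Library pairs shared 4 to 15 barcodes, and no shared barcode was a selected cell.

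The selected cells had a median of 8383 UMIs and 3334 genes, against 8208.5 UMIs in the other 2952 CTX cells. Their median mitochondrial share was 1.57%. Median depth in the gated cells of LGE, MGE and CGE was 8143, 9751 and 9038 UMIs. Levels below are UMIs of a gene summed over the cells of a group and scaled to counts per 1000000 UMIs of the group (CPM), from 5794115 UMIs in the selected cells, 24967181 in the other CTX cells, and 5549539, 5254028 and 1571937 in the gated LGE, MGE and CGE cells. Predicted doublets were kept in these sums and made up 28 of the selected cells (4.11%, against 5.67% of all CTX cells that passed the filters).

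Cells with several radial glia markers at once made up most of the selection. Apart from Nes, 5 markers were used: Pax6 and Emx2, dorsal transcription factors, Hes5, a Notch target, Aldoc, a glycolytic aldolase, and Gas1, a membrane-anchored co-receptor for hedgehog ligands. Each cell was thinned at random to 3000 UMIs, which left out 22 of the selected cells. A UMI of Gas1 was then found in 84.1% of the selected cells, of Aldoc in 71.7%, of Hes5 in 65.2%, of Pax6 in 55.9% and of Emx2 in 46.4%. At the cells' own depth the shares were 95.9, 91.3, 85.8, 86.5 and 78.4%. CTX neurons with high Dcx were cells above 1.5 for Dcx, on the scale used for Nes, that held no Nes UMI (0 of 632 at own depth). In 618 of them (median depth 7773.5 UMIs) the thinned shares were 4.69, 5.83, 3.88, 8.90 and 7.61%. These neurons were thus set apart by Nes, which also chose the selected cells, so their low shares are not an independent background. In 56 vascular, mesenchymal and myeloid CTX cells (9214 UMIs) a UMI was found in 7, 6, 5, 3 and 2 cells. At least 3 of the 5 markers were found together in 74.4% of the selected cells (70.9 to 77.7%), against 65.5% (62.2 to 68.7%) of the other CTX cells without Eomes or Neurod6, 44.1% of the Eomes cells, 12.3% of the Neurod6 cells and 0.324% of the high-Dcx neurons. That share was 7.79% in the gated LGE cells, 0.366% in MGE and 5.20% in CGE. Pax6, Emx2, Aldoc and Gas1 were past 2-fold higher in the selected cells than in every eminence. The low shares there thus follow from the choice of markers and do not say how far those cells are radial glia.

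Markers of most other cell types were low in the selection. By count 6 of 682 selected cells had high Dcx and 6 had 3 or more genes of a non-neural list. The summed level of 8 microglia and macrophage genes was 5.18 CPM, against 259.5 CPM in the other CTX cells, with Cx3cr1 at 0. Pericyte and mesenchyme genes summed to 42.8 against 97.8 CPM, with Kcnj8 at 0. Endothelial genes summed to 29.5 CPM, of which Egfl7 gave 19.3 CPM, above the 17.6 CPM of the other CTX cells, and against 42.5, 68.5 and 6.36 CPM in LGE, MGE and CGE. The summed level of 5 Cajal-Retzius genes was 30.9 CPM, against 81.7 CPM in the other CTX cells and 1.26, 2.85 and 8.27 CPM in LGE, MGE and CGE. Reln, the secreted protein of these cells, had 97 UMIs in 5 of the selected cells. Genes of the cortical hem summed to 10.5 CPM and of the choroid plexus to 0.690 CPM, with Wnt3a, Lmx1a and Ttr at 0. A list of 5 antihem genes went the other way, at 86.1 CPM against 42.6 CPM in the other CTX cells, with Sfrp2 past 2-fold higher. It was at 81.8, 65.7 and 94.8 CPM in LGE, MGE and CGE. Red cell globin genes summed to 91.8 CPM, against 101.8 CPM in the other CTX cells and 60.4, 63.4 and 21.6 CPM in LGE, MGE and CGE.

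The Nes limit cut through a continuous range and not through a gap. The lowest selected cell was at 1.501, the highest CTX cell left outside by Nes alone was at 1.498, and the median and highest selected cells were at 1.85 and 3.05. Of the 1565 CTX cells without Eomes or Neurod6 UMIs, 413 lay between 1.0 and 1.5 and 466 between 1.5 and 2.0, and 248 had no Nes UMI, at a lower median depth of 6158.5 UMIs. Cells just below the limit resembled those just above it. Hes5 was at 473 CPM (451 to 497) from 1.0 to 1.5 and at 490 CPM (469 to 512) from 1.5 to 2.0, and Aldoc was at 417 (396 to 439) and 435 CPM (415 to 456). Sox2, which maintains neural progenitors, was at 516 and 576 CPM, and Gas1 at 663 and 745 CPM, with intervals that did not overlap. Levels were lowest where no Nes UMI was found, with Pax6 at 187 CPM there and 357 CPM above 2.0. In that group Tubb3, a neuronal tubulin, was at 1164 CPM and C1qb, a microglial gene, at 380 CPM, against 122 and 0 CPM above 2.0.

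**Figure D1:**
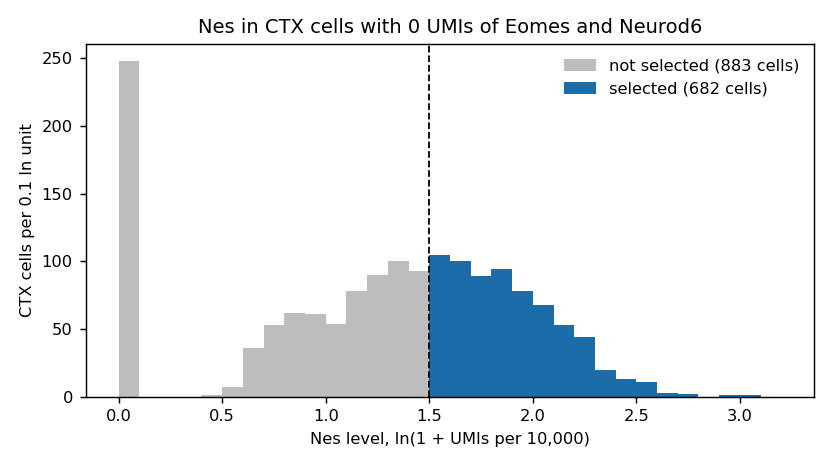
Number of CTX cells without Eomes or Neurod6 UMIs (y axis, cells per 0.1 unit) by Nes level (x axis, ln(1 + UMIs per 10000)), with the limit of 1.5 as a dashed line. The 682 selected cells (blue) and the 883 others (grey) form a single hump across the limit, beside a bar of 248 cells without a Nes UMI.

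Against the rest of the cortex, genes of radial glia were higher and genes of neurogenesis and neurons were lower. The rule chose the cells on this contrast, so the values describe it and support nothing. A difference was counted when the log2 ratio of CPM, with 5 CPM added to each side, passed 2-fold, among genes at 20 or more CPM in either group. By that count 71 of 7184 genes (0.988%) were higher in the selected cells and 398 (5.54%) lower, and the median log2 ratio of all genes was 0.07. Of 21 radial glia genes, 11 were past 2-fold higher and none lower (median log2 1.10). Of 15 neurogenic genes 14 were lower (median log2 -2.07), and of 18 neuronal genes all 18 were lower (median log2 -3.16).

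The 12 genes with the largest ratio over other CTX cells were Hmga2, Gas1, Ttyh1, Sox9, Sfrp1, Nr2e1, Hes1, Hes5, Aldoc, Psat1, Jun and Sox2. Hmga2, a chromatin protein of early progenitors, was at 113 CPM against 38.3 CPM, a ratio of 2.95 (2.67 to 3.27). The transcription factors Sox9 (266 against 110 CPM), Nr2e1 (202 against 85.6 CPM) and Sox2 (592 against 267 CPM) all keep neural progenitors in their undifferentiated state. Psat1, an enzyme of serine synthesis, was at 316 against 141 CPM, and Sfrp1, a secreted Wnt antagonist, at 895 against 388 CPM. Jun, an immediate early gene, was at 481 CPM in the selected cells, against 216 CPM in other CTX cells and 204, 174 and 189 CPM in LGE, MGE and CGE. A list of 9 immediate early and heat shock genes summed to 575 CPM in the selected cells and to 333, 267, 235 and 266 CPM in those groups, mostly through Jun, while Fos was at 0.863 CPM. Their part in the other results was not tested.

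The difference was small against the other cells without Eomes or Neurod6 and large against the Neurod6 cells. In the 883 other cells without Eomes or Neurod6 UMIs, Hes5 was at 440 CPM, in the 327 cells with Eomes and without Neurod6 at 315 CPM, and in the 1742 cells with Neurod6 at 94.8 CPM. Sox2 followed the same order, from 592 CPM in the selected cells to 475, 409 and 145 CPM. Emx1 did not, with 158 CPM in the selected cells and 145, 227 and 216 CPM in the other groups.

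Among the genes that were lower, Neurod2, a neuronal bHLH factor, was at 8.97 CPM in the selected cells and 359 CPM in the other CTX cells, 39.9-fold lower (30.4 to 53.5). Sstr2 (2.59 against 127 CPM), Sez6 (4.66 against 169 CPM), Neurod1 (1.55 against 103 CPM) and Kif21b (6.90 against 190 CPM) followed. Rnd2, a small GTPase of migrating neurons, was at 30.0 against 537 CPM, and Dcx, a microtubule protein of young neurons, at 9.84 against 217 CPM. Cdkn1c (p57), a brake on the cell cycle, was at 21.6 CPM against 70.1 CPM in the cells without Eomes or Neurod6, 127 CPM with Eomes and 595 CPM with Neurod6. Neurog2 peaked between progenitor and neuron, with 217 CPM in the selected cells, 1503 CPM in the Eomes cells and 503 CPM in the Neurod6 cells. Gadd45g, a gene of cell cycle exit, did the same at 55.4, 887 and 295 CPM.

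**Figure D2:**
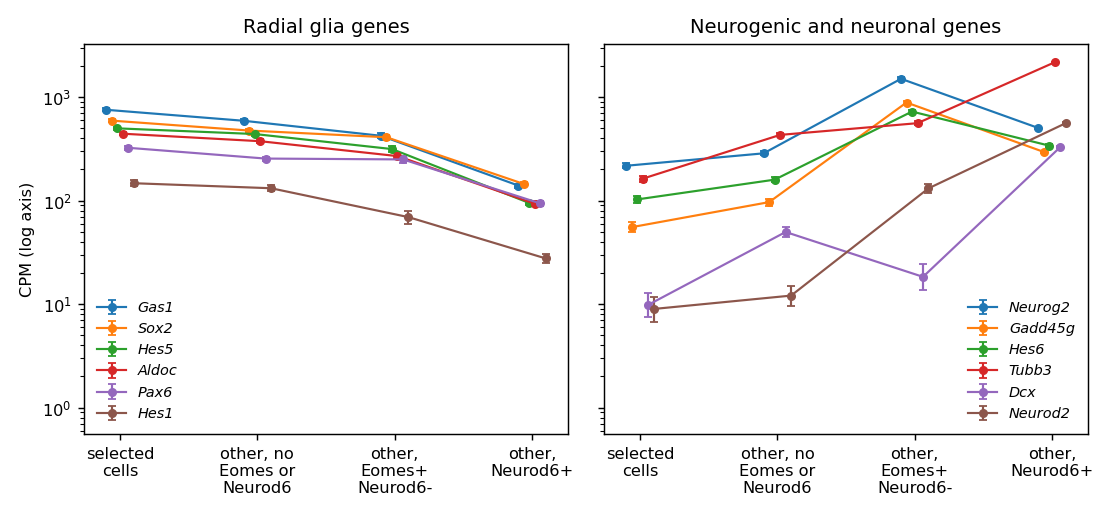
CPM (y axis, log) of 6 radial glia genes (left) and 6 neurogenic and neuronal genes (right) in the selected cells and in the other CTX cells split by Eomes and Neurod6 UMIs; bars are exact Poisson 95% intervals. Of the radial glia genes, Gas1, Sox2, Hes5, Aldoc and Hes1 fall from left to right. The share of thinned cells with a Pax6 UMI was 55.9, 47.4, 50.3 and 19.7% over the same groups. Neurog2, Gadd45g and Hes6 peak in the Eomes cells, and Tubb3 and Neurod2 in the Neurod6 cells.

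Against cells of the same gate in the eminences, 101 of 7503 genes (1.35%) were more than 2-fold higher in the cortical cells than in each of LGE, MGE and CGE, and 143 (1.91%) were lower than in each. For single regions the counts were 182 higher (2.56%) and 276 lower (3.88%) of 7117 genes against LGE, 212 (2.97%) and 305 (4.27%) of 7145 against MGE, and 176 (2.44%) and 354 (4.91%) of 7204 against CGE. The median log2 ratio of all genes lay between -0.01 and 0.02. Nes itself was alike by construction, at 579 CPM against 553, 662 and 615 CPM.

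Transcription factors of the dorsal telencephalon led the genes that were higher. Of 24 listed, 20 reached 20 CPM in at least 1 group, and 11 of these were past 2-fold higher than in every eminence: Pax6, Emx1, Emx2, Lhx2, Dmrt3, Dmrta2, Neurog2, Fezf2, Tfap2c, Otx1 and Id4. Of these Emx1, Dmrt3, Dmrta2, Neurog2, Fezf2 and Tfap2c were at 10.8 CPM or less in every eminence, so they reached 20 CPM only through the cortical cells and had to be higher. The whole list of 24 summed to 5460 CPM in the selected cells and to 2471, 2014 and 2313 CPM in LGE, MGE and CGE. Emx1 (chr6:85187438-85204462, plus strand, GRCm38), a homeobox gene of the dorsal pallium, had 917 UMIs in the selected cells (158 CPM, 148 to 169) and none in the gated cells of any eminence. It was at least 293-fold higher than LGE, 277-fold higher than MGE and 82.9-fold higher than CGE, with a floor of 3 counts for each group. Dmrt3 was likewise at 32.4 CPM and at 0 in all 3 eminences.

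Neurog2 (chr3:127633135-127635631) was at 217 CPM against 0.901, 0 and 5.73 CPM in the eminences, taken in the order LGE, MGE and CGE here and in what follows. Dmrta2, which with Emx2 patterns the cortical neuroepithelium, was at 176 CPM against 1.62, 0.381 and 6.36 CPM. Fezf2, a zinc finger gene of deep-layer projection neurons, was at 132 CPM against 0.901, 0.952 and 10.8 CPM, and Tfap2c (AP-2 gamma) at 74.4 CPM against 1.80, 0 and 3.82 CPM. All 4 genes were near absent from LGE and MGE, and each had its highest eminence value in CGE.

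Pax6 and Emx2 were graded and not absent in the eminences. Pax6 (chr2:105668900-105697364) was at 324 CPM in the selected cells against 62.5, 0.952 and 74.4 CPM in LGE, MGE and CGE, so the ratio ran from 4.35 (3.61 to 5.29) over CGE to 340 (146 to 1049) over MGE. Emx2 (chr19:59458372-59465357) was at 239 CPM against 59.5, 8.18 and 28.6 CPM. Both genes overlap an antisense gene (Pax6os1 and Emx2os), as do Gas1, Hes5, Dlx1, Six3, Jun and Id4, and Sox2 lies within Sox2ot. Strand use in the counting was not given in the sources used here, and whether such pairs share counts was not tested. Lhx2, a LIM homeobox selector of cortical fate, was at 1036 CPM against 430, 243 and 261 CPM. Of the same list Sall3 (6.56 CPM against 94.8, 99.4 and 167 CPM) and Tox (3.28 CPM against 24.0, 62.2 and 45.2 CPM) were lower in the cortical cells, and Otx2 had no UMI there against 31.5, 48.0 and 8.91 CPM.

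Genes of ventral identity were low. The 19 listed genes summed to 41.4 CPM in the selected cells, against 2353, 2892 and 1879 CPM in LGE, MGE and CGE. In each eminence every listed gene that reached 20 CPM was past 2-fold lower in the cortical cells (12 of 12, 15 of 15 and 10 of 10). Most of these reached that level only through the eminence, so the count had to fall that way. Against all 3 eminences 9 of 17 genes were lower and none higher. Dlx1 and Dlx2, homeobox genes of the inhibitory lineage, each had 0.863 CPM in the selected cells, against 467 and 499 CPM in LGE. Gsx2, which sets the ventral fate, and Six3 had no UMI in the selected cells, which put Gsx2 at least 117, 73.2 and 150-fold and Six3 at least 383, 230 and 187-fold below LGE, MGE and CGE. A count of 0 in 660 thinned cells puts the 3-count limit on the share of cells with a UMI at 0.455% for either gene, and the exact upper bound at 0.557%. Olig2, a bHLH factor of the MGE and of oligodendrocyte precursors, was at 0.690 CPM against 80.9, 331 and 157 CPM. Nkx2-1, the selector of the MGE, had no UMI in the cortical cells, 552 CPM in MGE, 33.1 CPM in CGE and 3 UMIs in LGE.

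The inhibitory lineage genes Gad1, Gad2, Dlx1, Dlx2 and Dlx5 summed to 4.83 CPM in the selected cells against 1223, 906 and 706 CPM.

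**Figure D3:**
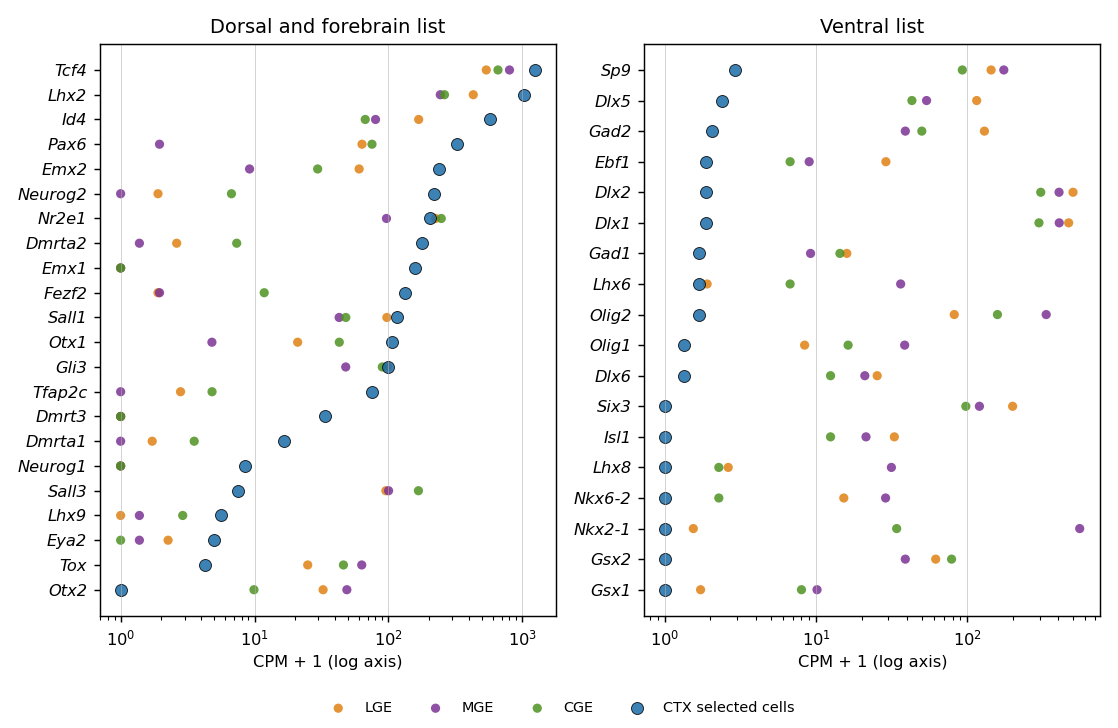
CPM + 1 (x axis, log) of dorsal and forebrain (left) and ventral (right) transcription factors and Gad genes in the selected CTX cells (large blue points) and in gated LGE, MGE and CGE cells. Emx1, Dmrt3, Neurog2 and Dmrta2 lie far right of the eminences, and the ventral genes lie left of all 3, with Lhx6 and Nkx2-1 also near 0 in LGE.

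Outside the lists, Dok5, Lpar1, Alcam, Socs2 and Tnik were among the 12 genes with the largest smallest ratio over the eminences. Lpar1, a receptor for lysophosphatidic acid, was at 110 CPM against 3.604, 6.66 and 3.18 CPM. Alcam, a cell adhesion molecule, was at 157 CPM against 14.2, 3.24 and 5.09 CPM, and Dok5, an adaptor of receptor tyrosine kinases, at 64.5 CPM against 1.44, 0.952 and 1.27 CPM. Socs2, a suppressor of cytokine signalling, was at 115 CPM against 16.6, 7.99 and 17.8 CPM. In the other direction Pid1 was at 10.5 CPM against 328, 202 and 227 CPM, and Ackr3, a scavenger receptor for the chemokine Cxcl12, at 1.38 CPM against 55.9, 61.7 and 70.0 CPM. Gm5607 (7.77 CPM against 112, 148 and 142 CPM) overlaps Sox1 on the same strand, and whether the pair share counts was not tested. The unnamed gene RP23-145L9.6 had no UMI against 99.8, 67.6 and 52.8 CPM, and Sp9, a zinc finger gene of the ventral list, was at 1.90 CPM against 143, 173 and 91.6 CPM.

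Among areal patterning genes, Nr2f1 (COUP-TFI), which is graded across the cortex, was at 451 CPM, above LGE (102 CPM) and MGE (305 CPM) and 3.15-fold below CGE (1420 CPM, interval 2.97 to 3.33). Nr2f2 was at 6.21 CPM against 2.70, 48.0 and 397 CPM. Sp8, a rostral gene, was at 24.0 CPM, close to LGE (29.6 CPM) above MGE (0.952 CPM) and above CGE (3.82 CPM), but at a Nes limit of 1.0 it turned below CGE (log2 -0.20). Meis2 was at 1027 CPM against 1219, 571 and 590 CPM. Of 13 areal genes at 20 or more CPM, 5 were higher than in every eminence (Emx2, Pax6, Lhx2, Fezf2 and Dmrta2, which the dorsal list also holds) and Rorb, an orphan receptor, was lower (6.04 CPM against 80.9, 34.3 and 87.8 CPM). Rorb was below 20 CPM in the cortical cells, so it could only be lower, and Fezf2 and Dmrta2 could only be higher.

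The Notch pathway was unevenly set between the cortical and ventral cells. Hes5 (chr4:154960923-154962371, plus strand) is shown by sequence because it is a Notch target among the markers. The stretch before its start, chr4:154960673-154960922 of GRCm38.p6 (plus strand, RefSeq), reads 5′ to 3′, with the letters GTGGGAA of the core RBPJ motif and their reverse complement TTCCCAC in capitals.

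Hes5 promoter: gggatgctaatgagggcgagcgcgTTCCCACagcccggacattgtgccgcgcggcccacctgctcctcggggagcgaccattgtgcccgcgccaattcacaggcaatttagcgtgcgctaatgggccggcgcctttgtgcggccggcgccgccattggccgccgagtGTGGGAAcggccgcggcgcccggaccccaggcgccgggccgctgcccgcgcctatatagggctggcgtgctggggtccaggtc

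The 2 matches begin 226 and 83 bases before the start, and they do not overlap. Of 32851 mouse promoters of 250 bases, searched on both strands, 5.42% held at least 1 match and 53 (0.161%) held 2 or more. Of 21 Notch genes on the list, 17 were in the promoter table and 3 held a match (Hes5, Hey2 and Lfng). A match is a run of letters, and binding was not measured here.

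Notch targets differed gene by gene from the eminences. Hes5 was at 499 CPM (481 to 518) in the cortical cells, 0.911 of its level in LGE (548 CPM, ratio interval 0.865 to 0.958) and 2.11 and 1.92-fold below MGE (1051 CPM) and CGE (957 CPM). Hes1 was at 147 CPM, above LGE (46.1 CPM), MGE (61.5 CPM) and CGE (96.1 CPM), with a ratio of 3.19 (2.77 to 3.68) over LGE and 1.53 (1.29 to 1.83) over CGE. Hey1, another Notch-responsive repressor, was at 105 CPM and past 2-fold above all 3 eminences (41.8, 38.4 and 26.7 CPM). Nrarp, a feedback inhibitor, was at 119 CPM against 101, 176 and 279 CPM. The receptor Notch1 was at 144 CPM against 248, 359 and 400 CPM, and Notch2, Notch3 and Rbpj were within 2-fold of each eminence.

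Ligands and genes of Notch-inhibited, differentiating cells were lower. Dll1 was at 10.0 CPM against 65.6, 60.3 and 49.0 CPM, Dll3 at 0.863 CPM against 62.9, 71.0 and 67.4 CPM, and Jag1 at 4.49 CPM against 18.6, 32.5 and 54.7 CPM. The Hes antagonist Hes6 was at 103 CPM against 244, 221 and 368 CPM, and Mfng, a glycosyltransferase that modifies Notch, at 31.8 CPM against 98.6, 180 and 134 CPM. Dll1 and Dll3 were below 20 CPM in the cortical cells, so they reached the 20 CPM limit only through the eminences and could only be lower. Of 17 Notch genes at 20 or more CPM, 1 was higher (Hey1) and 4 were lower (Dll1, Dll3, Hes6 and Mfng) than in all 3 eminences. Without the condition on Eomes and Neurod6, Dll3 and Hey1 kept this call and Dll1, Hes6 and Mfng lost it, with log2 ratios of -0.84 for Dll1 over CGE, -0.68 for Hes6 over LGE and -0.87 for Mfng over LGE. Within the cortex Dll1 was at 188 CPM in the Eomes cells and Dll3 at 78.5 CPM in the Neurod6 cells. The rule takes such cells almost entirely out of the cortex, as given next.

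Neurogenic and neuronal genes were lower than in the eminences, but the gate was not equal between regions. Dropping cells with Eomes or Neurod6 UMIs removed 244 of 926 high-Nestin cells from CTX, and only 3 from LGE, none from MGE and 4 from CGE. Gated LGE, MGE and CGE cells also held 78, 31 and 17 cells with high Dcx, against 6 in CTX. With this gate 6 of 12 neurogenic genes were past 2-fold lower than in all 3 eminences and 1 was higher (Neurog2), and 7 of 13 neuronal genes were lower and none higher. Without the condition on Eomes and Neurod6 the counts were 1 and 5, while the dorsal count of 11 and the ventral count of 9 were the same. Insm1, a zinc finger gene of newborn neurons, was at 26.4 CPM against 304, 397 and 99.2 CPM, and Tubb3 at 163 CPM against 711, 459 and 573 CPM. Elavl2 (99.4 CPM against 117, 139 and 141 CPM) and Rcor2 (83.2 CPM against 160, 155 and 99.9 CPM) were within 2-fold.

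Components of hedgehog reception were high in the cortical cells and a transcriptional target of the pathway was low. In this pathway Shh relieves the block that Ptch1 holds on Smo, Gas1, Cdon and Boc assist reception, and Ptch1, Gli1 and Hhip are induced as targets. Gas1 (chr13:60174405-60177365, minus strand) was at 754 CPM (732 to 777) in the cortical cells against 78.6, 4.57 and 68.1 CPM in LGE, MGE and CGE. Cdon (chr9:35421128-35507652) was at 164 CPM against 29.4, 3.43 and 0.636 CPM, and Boc at 59.2 CPM against 34.2, 3.24 and 20.99 CPM. The lowest level of all 3 lay in MGE, apart from Cdon, which had 1 UMI in CGE.

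Ptch1 (chr13:63508328-63573598) was at 1.73 CPM (0.828 to 3.17) in the cortical cells against 25.2, 53.3 and 76.3 CPM in LGE, MGE and CGE, 14.6, 30.9 and 44.2-fold lower. Gli1 and Hhip had no UMI in the cortical cells, and were at 10.3 CPM or less in each eminence. Shh itself was at 0 in CTX, LGE and CGE and at 0.381 CPM in MGE, so no ligand was detected in any gated group beyond 2 UMIs. Smo (84.1 CPM against 65.2, 74.4 and 69.3 CPM) and Sufu were within 2-fold of all 3, and Gli3, the main repressor, was at 99.1 CPM against 97.7, 47.0 and 89.1 CPM. Of 8 hedgehog genes at 20 or more CPM, 2 were higher (Gas1 and Cdon) and 1 was lower (Ptch1) than in every eminence. Ptch1 was below 20 CPM in the cortical cells, so it could only be lower. Cdon in MGE and CGE, and Gas1 in MGE, were below 20 CPM, so in those comparisons they could only be higher. Within the cortex Ptch1 was as low in the other cells (1.84 CPM).

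**Figure D4:**
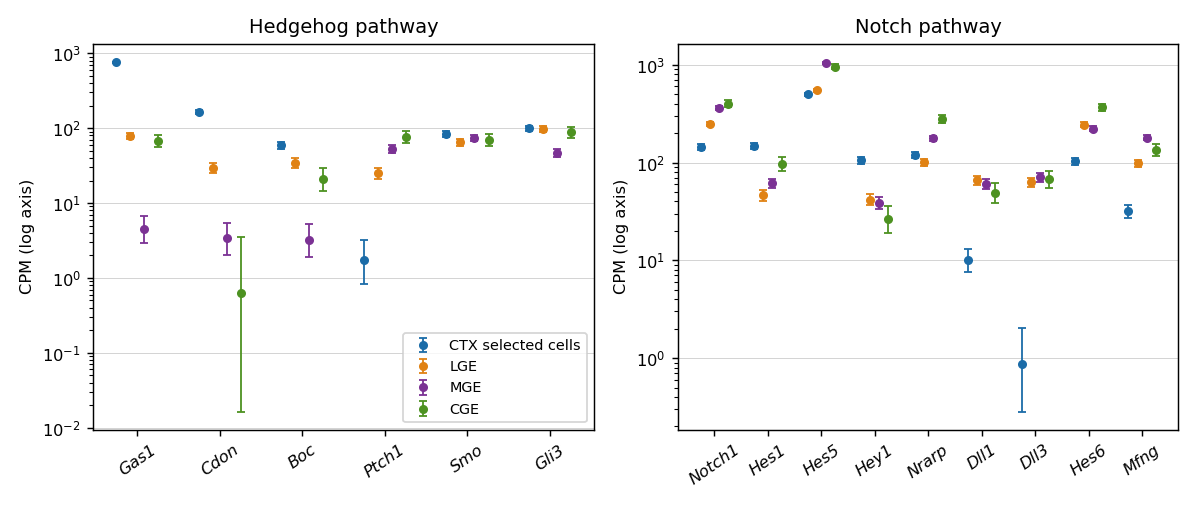
CPM (y axis, log) of 6 hedgehog genes (left) and 9 Notch genes (right) in the selected CTX cells and in gated LGE, MGE and CGE cells; bars are exact Poisson 95% intervals. Gas1 and Cdon are highest and Ptch1 lowest in CTX, and on the right Hey1 and Hes1 are highest and Dll1, Dll3, Hes6 and Mfng lowest in CTX.

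Of the Wnt genes, 17 of 31 reached 20 CPM and only Fzd9, a receptor, passed 2-fold over all 3 eminences (68.3 CPM against 2.70, 6.47 and 14.0 CPM). Fzd9 was below 20 CPM in every eminence, so it could only be higher. Lef1, a Wnt-responsive transcription factor, was at 41.9 CPM against 7.57, 2.09 and 21.6 CPM, and Tcf7l1, a repressor of the same family, at 90.3 CPM against 44.5, 34.8 and 14.0 CPM. Sfrp1 was at 895 CPM against 488, 191 and 555 CPM. The ligand Wnt7b was at 20.7 CPM, above LGE (6.13 CPM) and below CGE (191 CPM), and within the cortex it was at 190 CPM in the Neurod6 cells. Wnt8b, a hem ligand, was at 3.80 CPM in the cortical cells and at 0 in the eminences.

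Among BMP and Id genes, Id4, an inhibitor of bHLH factors, was at 576 CPM (557 to 596) against 167, 79.2 and 66.2 CPM, whereas Id1 (10.7 CPM against 20.7, 47.8 and 83.3 CPM) and Id3 (19.0 CPM against 16.9, 46.4 and 88.4 CPM) were lower than in MGE and CGE. Id4 was the only gene of 8 at 20 or more CPM that passed 2-fold over all 3. None of 6 FGF genes passed 2-fold in all 3. Fgfr3, a receptor of caudal progenitors, was at 115 CPM against 32.6, 51.0 and 130 CPM, and Fgfbp3, an FGF carrier, at 66.3 CPM against 191, 87.2 and 76.3 CPM. Fgf8, Fgf15, Fgf17 and Fgf18 were at 0.173 CPM or below in the cortical cells.

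Genes that define radial glia in general were not uniformly shared with the ventral cells. Of 21 radial glia genes, Aldoc (443 CPM against 16.6, 7.42 and 30.5 CPM) and Gas1 were past 2-fold higher than in every eminence. Ednrb, an endothelin receptor, was lower (53.5 CPM against 135, 232 and 337 CPM), as were Ptprz1, a receptor phosphatase (93.2 CPM against 521, 407 and 1116 CPM), and Ddah1 (248 CPM against 690, 536 and 552 CPM). Fabp7, a fatty acid binding protein of radial glia, was at 947 CPM against 1465, 1520 and 6389 CPM, so CGE stood 6.75-fold higher (6.53 to 6.98). Sox2, Sox9, Vim, Phgdh, Dbi and Prom1 were within 2-fold of each eminence. None of 12 apical polarity genes passed 2-fold in all 3, with Cdh2 at 195 CPM against 219, 168 and 239 CPM.

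Among genes of gliogenesis and of later radial glia, Nfix, a nuclear factor I gene, was at 753 CPM against 139, 258 and 288 CPM, and Nfib at 1249 CPM against 339, 498 and 1034 CPM. Zbtb20, a zinc finger gene of progenitors and glia, was at 143 CPM against 980, 839 and 1186 CPM, and was found in 30.3% of thinned cortical cells against 84.3, 82.1 and 90.2%. In high-Dcx CTX neurons, which held no Nes UMI, that share was 16.2%. Hopx, a gene of outer radial glia in later cortex, was at 34.7 CPM against 1.26, 1.52 and 8.91 CPM, while Tnc, another gene of that state, was at 0.173 CPM. The astrocyte genes Gfap and Aldh1l1 had no UMI in the cortical cells, and Aldh1l1 was at 25.0, 11.8 and 25.4 CPM in LGE, MGE and CGE. Of 8 timing genes at 20 or more CPM none passed 2-fold in all 3, with Hmga2 below LGE (188 CPM) and above MGE (49.1 CPM) and CGE (63.0 CPM), and Lin28a and Lin28b were each at 0.173 CPM.

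Most glycolytic genes were within 2-fold of the eminences. Of 17 at 20 or more CPM only Aldoc passed 2-fold over all 3 eminences, and median log2 ratios were 0.44, 0.62 and 0.39 over LGE, MGE and CGE, against -0.00, 0.02 and -0.01 for all genes. Ldha, lactate dehydrogenase, was at 878 CPM against 440, 440 and 548 CPM, Pkm at 1730 CPM against 1092, 1093 and 1022 CPM, and Eno1 at 566 CPM against 333, 284 and 345 CPM. Ldhb and Aldoa did not follow, at 268 CPM against 492, 412 and 286 CPM and at 244 CPM against 353, 185 and 268 CPM. Of 15 matrix and adhesion genes Cdon and Gpc3 (21.9 CPM against 2.34, 4.95 and 1.91 CPM) were higher and Ptprz1 lower than in all 3. Gpc3 was below 20 CPM in every eminence, so it could only be higher. Cyclin D1 (Ccnd1) was lower, at 107 CPM against 370, 415 and 307 CPM, while Ccnd2 was at 902 CPM, below LGE (1172 CPM) and above MGE (529 CPM) and CGE (386 CPM).

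Cell cycle genes were as high in the selected cells as in the gated ventral cells, within 2-fold. At 3000 UMIs a cell, the median was 16 UMIs of 34 S-phase genes and 27 UMIs of 52 G2/M genes in the selected cells. It was 15.5 and 16 in the Eomes cells, 4 and 6.5 in the Neurod6 cells, and 2 and 5 in the high-Dcx neurons, which held no Nes UMI. LGE was at 18 and 32, MGE at 19 and 24, and CGE at 14 and 17. At least 5 UMIs of either list were found in 99.7% of thinned selected cells, but also in 57.0% of the high-Dcx neurons, so that share does not separate cycling from other cells. No S-phase or G2/M gene was past 2-fold in any comparison with other CTX cells or with an eminence. Median log2 ratios over other CTX cells were 0.58 for the 34 S-phase genes and 0.65 for 51 G2/M genes.

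The genes that varied most among the selected cells were of several kinds. Ranked by variance over mean in thinned cells, across 4931 genes with a median of 1.02, the noncoding RNA Malat1 came first at 8.89, the G2/M gene Ube2c was at 4.69, Rtn1 and Tmsb4x were both at 3.89, Neurog2 was at 3.85, Arl6ip1 at 3.61, Xist at 3.39, Cenpf at 2.88, Gadd45g at 2.78 and Hes5 at 2.46. Splitting 660 thinned cells by 1 or more UMIs of Neurog2 gave 218 cells with and 442 without. Of 6977 genes 25 (0.358%) were past 2-fold higher and 59 (0.846%) lower in the cells with Neurog2. Gadd45g was at 142 against 23.4 CPM, a ratio of 6.08 (4.01 to 9.45), and Btg2, an antiproliferative gene of neurogenic divisions, at 138 against 57.3 CPM. Insm1 had 45 against 12 UMIs (ratio 7.60, 3.96 to 15.8), Dll1 20 against 5 UMIs (8.11, 2.95 to 27.7) and Neurog1 16 against 1 UMI.

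Hes5 did not follow this split, at 524 and 547 CPM with a ratio of 0.96 (0.84 to 1.09), nor did Id4 (0.99, 0.87 to 1.12) or Emx1 (1.10, 0.85 to 1.41). Casc5, Fam64a, Spc25, Fbxo5 and Cdk1, genes of DNA replication control and mitosis, were 2.24 to 2.70-fold lower with Neurog2 in thinned cells. At each cell's own depth these differences were smaller, with log2 ratios of -0.21 for Casc5 and -0.02 for Fam64a, and 12 genes in place of 84 passed 2-fold. Gadd45g kept a log2 ratio of 2.00 at that depth.

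**Figure D5:**
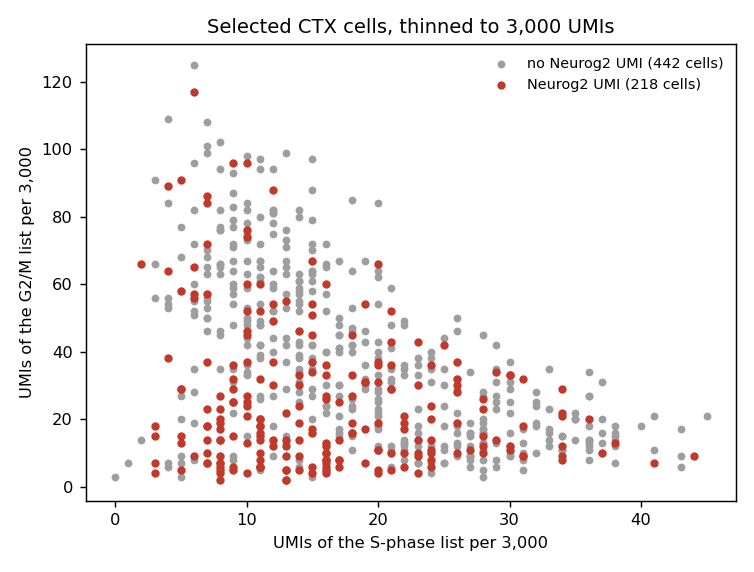
UMIs of the S-phase list (x axis) and of the G2/M list (y axis) in each of the 660 selected cells thinned to 3000 UMIs; red points hold a Neurog2 UMI (218 cells), grey points do not (442 cells). Cells spread along both axes around medians of 16 and 27, and cells with Neurog2 lie across the whole range and are many among those low on the G2/M axis.

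Splitting by Mki67, a gene of cycling cells highest in G2 and M, gave 326 cells with and 334 without, and 126 genes (1.80%) were higher and 47 (0.672%) lower of 6990. Cdca2 (184 against 39.9 CPM), Prc1, Kif11, Aurka and Aspm, genes of mitosis, were 3.69 to 4.61-fold higher. Ung (45.0 against 192 CPM), Cdt1 and Gins2, genes of DNA replication and repair, were lower. Neurog2 was at 148 CPM with Mki67 and 340 CPM without, 2.30-fold lower (1.88 to 2.81). Insm1 (12 against 45 UMIs) and Gadd45g (33 against 91 UMIs) went the same way.

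Splitting by Nr2f1 gave 421 cells with and 239 without, and 45 genes (0.649%) were higher and 20 (0.288%) lower of 6939. Fgfr3 had the largest ratio among genes at 100 or more CPM, at 166 against 79.5 CPM, 2.09 (1.55 to 2.85). Meis2 was at 1224 against 801 CPM (1.53, 1.39 to 1.69), Pax6 at 1.33 (1.12 to 1.59) and Emx2 at 0.91 (0.75 to 1.10). Neurog2 was at 203 against 319 CPM.

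A Leiden clustering of the 682 cells, made without the S-phase and G2/M list genes, gave 7 clusters. Their leading genes are given as a description, since the same cells were clustered, and were drawn from all genes, the cycle lists included. Cluster 1 (172 cells) was led by Reln, Col3a1, Stmn2, Gadd45g and Mapt, and had the lowest median of G2/M genes of the 7 (35.9 UMIs per 10000). Reln and Col3a1 came from 3 of its cells each, and 83.3% of its Stmn2 UMIs from 5 cells, whereas its 654 Neurog2 UMIs lay in 128 cells (533 CPM, against 132 CPM in the other clusters) and its Gadd45g UMIs in 61. Hes5 was at 660 CPM in it, the highest of the 7.

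Cluster 2 (131 cells) was led by the replication genes Cdc6, Ung, Ccne2, Chaf1b and E2f2 and had the highest S-phase median (100 UMIs per 10000). Cluster 3 (123 cells, median depth 10977 UMIs) was led by Pif1, Kpna2, Fam83d, Ube2c and Prc1, with a G2/M median of 241 UMIs per 10000. Cluster 4 (109 cells) was led by the histone genes Hist1h1b, Hist1h1a, Hist1h2ap and Hist1h2ae with Esco2, and cluster 5 (101 cells) by the mitotic genes Cenpa, Cdc20, Cdkn3, Cep89 and Pcnt, with low Hist1h1b (33.3 against 313 CPM). Gas1 was between 614 and 897 CPM and Emx1 between 136 and 176 CPM in these 5 clusters. Clusters 6 (30 cells, 3210.5 UMIs, 7 of them predicted doublets) and 7 (16 cells, 4008 UMIs) were shallow, rested on no marker list, and were left without a name.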

How the data were processed

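The authors deposited whole-number UMI counts for each gene and barcode, 1 matrix for each of 4 libraries, aligned to mm10 (GRCm38) with Cell Ranger at default parameters. The labels give version 3.0.0 and the file header 3.0.2. The annotation release was not stated, and positions came from GENCODE M21, which matched 42462 of 43346 features by ID. The cells and all 32 lists (419 genes) were chosen with earlier results of these data known. Counts were summed over cells, scaled to CPM and compared with 5 CPM added, among genes at 20 or more CPM in either group. Intervals are exact (Poisson, conditional for ratios, Clopper-Pearson for shares), at 95%, and cover counting error only. Zeros were bounded at 3 counts. Doublets were scored by simulated pairs at 0.8% per 1000 barcodes and kept. Named genes are list members, the 12 highest and 8 lowest ratios over other CTX cells at 100 CPM, the 12 extremes over all eminences at 50 CPM, and the 5 leading genes of each split or cluster. Clusters used 2000 variable genes, 20 components, 15 neighbours and resolution 0.5. Python 3.11.15, numpy 2.4.6, scipy 1.17.1, pandas 2.3.3, scikit-learn 1.9.0, leidenalg 0.10.2, igraph 0.11.9 and matplotlib 3.10.9 were used. Scripts were tested on simulated data. Some listed genes are not reported here by name.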

Additional observations from a re-analysis of the deposited data

How the results depend on the processing

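No paired analysis was possible because each region had 1 library, and for the same reason no replicate could be left out. With 1 CPM added in place of 5, 117 genes in place of 71 were higher than other CTX cells. With 20 CPM added, higher and lower counts were 16 and 249 against other CTX cells, 95 and 175 against LGE, 117 and 191 against MGE, 94 and 208 against CGE, and 54 and 84 against all 3 eminences. The split by Neurog2, Mki67 or Nr2f1 then gave 14, 72 or 6 genes past 2-fold in place of 84, 173 and 65. At 50 or more CPM, 217 genes were lower than other CTX cells, and counts were 101 and 154 against LGE, 122 and 158 against MGE, 92 and 197 against CGE, and 56 and 74 against all 3. With no limit on level, 608 genes were lower than other CTX cells, 418 lower than LGE, 469 lower than MGE, 280 higher and 546 lower than CGE, and 222 lower than all 3. These limits change how many genes are tested. Median-of-ratios scaling gave 45 genes higher than other CTX cells. Thinning to 3000 UMIs gave 269 genes higher than CGE, and thinning before the gate a share of 13.9%. A Nes limit of 1.0 gave a share of 30.1% and 143 genes higher than other CTX cells, and it turned Igfbpl1 (log2 -0.17) and Sp8 (log2 -0.20) below CGE. A limit of 2.0 gave 5.94%, 47 genes higher than other CTX cells and 268 higher than CGE. Without the condition on Eomes and Neurod6 the share was 25.5%, 1 neurogenic gene was lower than all 3 eminences, and Kif21b turned to a log2 ratio of 0.026 over MGE. Against CTX cells with Nes at 1.0 or below, 370 genes were higher. At each cell's own depth 100% of selected cells held 5 UMIs of a cycle list, 20 in place of 10 named genes were found in 50% or more of the cells, and 12 and 41 genes were past 2-fold by Neurog2 and Nr2f1. Beyond the effect of the numbers of genes or cells the cause was not tested. The other 173 summary values stayed within 1.5 times, or within their interval, and included every alternative of the dorsal and ventral counts. Of the log2 ratios and shares of single genes under these alternatives, 9822 stayed within the 95% interval of the main value. A further 1488 moved outside it, and 3 changed sign (Igfbpl1, Sp8 and Kif21b, given above). Leaving out the cells of the 2 shallow clusters, chosen after seeing the data, gave 68 higher and 399 lower than other CTX cells. The limits are that 178 CGE cells set the widest intervals, and that counting intervals say nothing of embryos or libraries.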

Other observations

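Malat1, a nuclear long noncoding RNA, had the largest variance over mean of 4931 genes in the thinned selected cells (8.89, against a median of 1.02). The 16 cells of cluster 7 held it at 221 CPM against 8992 CPM in the other selected cells, and had no UMI of the long RNA genes Mir99ahg and Kcnq1ot1, which were at 260 and 243 CPM elsewhere. Their median depth was 4008 UMIs, against 8383 in all selected cells. Xist, the RNA of the inactive X chromosome, had a variance over mean of 3.39 in a pool of embryos of both sexes. Cluster 6 held Notch2 at 294 CPM against 53.9 CPM and Rpgrip1 at 433 against 72.4 CPM. It had 30 cells at a median of 3210.5 UMIs, 7 of them predicted doublets. Both genes were picked as leading genes from the same cells that were clustered, so the values are a description only. A further 70 CTX barcodes with more than 4500 genes met the remaining conditions of the gate and were left out by the upper limit.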
